A study of Mus musculus with 9 samples.

Results

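The genes described here encode 10 cytosolic and mitochondrial heat shock proteins of the mouse, namely Hspa1a, Hspa1b, Hspa8, Hsph1, Dnajb1, Hsp90aa1, Hsp90ab1, Hspb1, Hspd1 and Hspe1. They were chosen by gene symbol, and all 10 were found among the 24054 rows of the deposited expression table. The measurement was RNA sequencing of cortical neurons from wild-type C57BL/6 mice, cultured for 6 days and then sequenced as polyadenylated RNA. The T3 group, 3 libraries, spent 7 h in 0.2% oxygen, and its medium held 10 nM triiodothyronine (T3), the active thyroid hormone. The hypoxia group, 3 libraries, had the same low oxygen without added T3, and the normoxia group, 3 libraries, was the untreated control. All groups shared the Neurobasal medium with B27 supplement. Libraries are named by the number in their column header, 11 to 13 for T3, 7 to 9 for hypoxia and 1 to 3 for normoxia. Whether the 3 libraries of a group are separate cultures is not stated, so the p-values weigh differences against a spread that may be technical.

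Heat shock proteins are molecular chaperones, proteins that help others to fold and keep them from clumping. In the cytosol the HSP70 proteins bind unfolded stretches of a client, J-domain proteins bring them the client, and nucleotide exchange factors release it. HSP90 proteins take on clients at a later stage, among them kinases and steroid hormone receptors. In the mitochondrial matrix HSP60 and its lid HSP10 form a chamber in which imported proteins fold. Many of these genes are switched on by heat shock factor 1 (HSF1), which binds heat shock elements, inverted repeats of a GAA unit. Neurons are known for a weak heat shock response beside glia, with much constitutive HSP70 and HSP90.

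Sequence upstream of a RefSeq transcription start is shown for the members in which it holds a heat shock element. The RefSeq promoter table (build GRCm38.p6) held 7 of the 10 members. Hspa8, Hsp90aa1 and Hsp90ab1 were not among them. A pair of GAA units in opposite directions, GAANNTTC or TTCNNGAA on either strand, was searched for in the 250 bases before each start. Capitals mark these matches, which may overlap, and each sequence runs 5′ to 3′ on the strand of its gene. The Hspa1b stretch is chr17:34959239-34959358 on the minus strand and the Hspa1a stretch is chr17:34972157-34972276 on the minus strand. The Hsph1 stretch is chr5:149636352-149636381 on the minus strand, and the Hspb1 stretch is chr5:135887799-135887838 on the plus strand. Hspd1 and Hspe1 share 1 stretch, chr1:55088053-55088082, read on the minus strand for Hspd1 and on the plus strand for Hspe1. By GENCODE M21 all 30 bases of that stretch lie in annotated exons and inside the Hspd1 gene, since Hspd1 has 2 RefSeq starts and the stretch precedes the downstream one. Of the 30 printed Hsph1 bases 25 lie in annotated exons, and none of those printed for Hspa1a, Hspa1b and Hspb1 do.
Hspa1b: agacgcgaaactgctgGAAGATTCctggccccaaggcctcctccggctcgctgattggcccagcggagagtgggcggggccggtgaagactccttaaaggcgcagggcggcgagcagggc
Hspa1a: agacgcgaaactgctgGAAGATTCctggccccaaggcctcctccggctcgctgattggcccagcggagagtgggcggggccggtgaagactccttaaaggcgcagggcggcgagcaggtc
Hsph1: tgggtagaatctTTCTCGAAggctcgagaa
Hspd1: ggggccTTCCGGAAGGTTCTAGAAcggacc
Hspe1: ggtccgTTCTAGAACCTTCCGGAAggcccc
Hspb1: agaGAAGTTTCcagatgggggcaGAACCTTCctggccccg

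Such a pair of units was found in 6 of the 7 members, all but Dnajb1, against 14.55% of the 27025 genes of the table. An unbroken run of at least 3 units was found in Hspd1 and Hspe1, which share the stretch that holds it, against 0.51% of the genes. In Hspd1 the heat shock elements precede the downstream start, and the upstream start has none in its window. The printed Hspa1a and Hspa1b stretches differ at 1 position, and their 250 upstream bases at 3 positions. The hypoxia response element core ACGTG, searched on both strands, was found in Hsph1, Dnajb1 and Hspd1 (there before the upstream start), against 18.49% of the genes. The thyroid hormone direct repeat DR4, AGGTCA repeated after a gap of 4 bases, was found in none of the 7, against 0.01% of the genes. These matches describe the letters of the window and do not show that a factor binds there. In a window of 200 bases the same members held each motif.

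**Figure D1:**
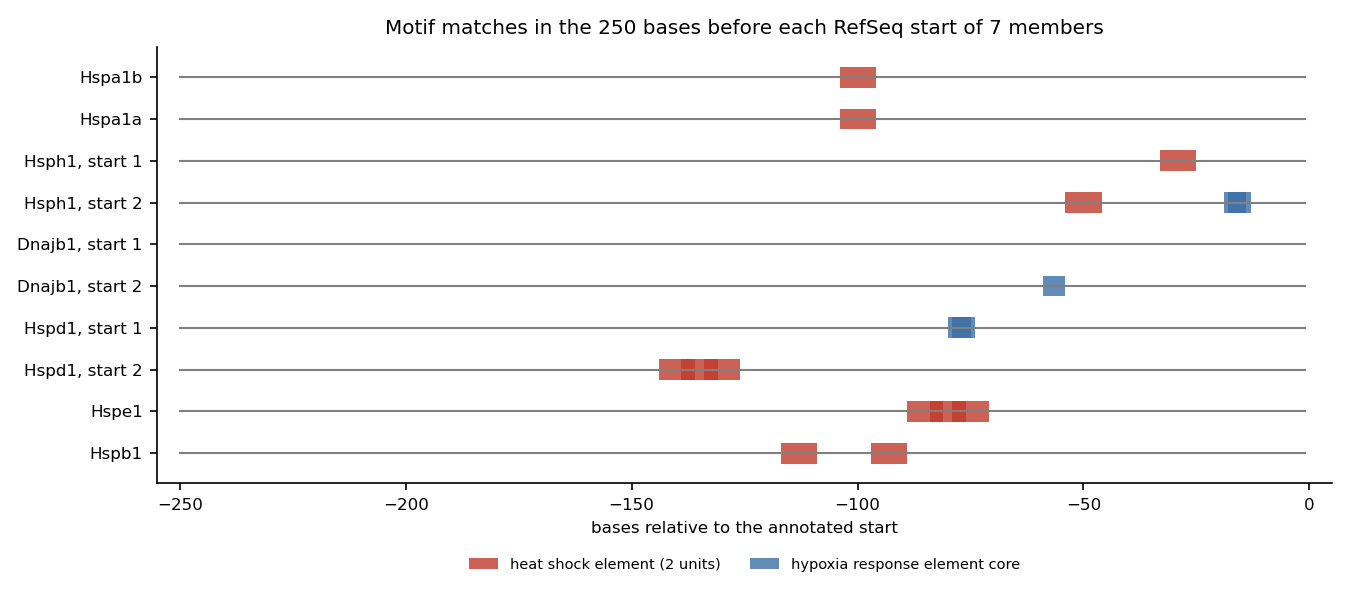
Matches of the heat shock element of 2 units (red) and of the hypoxia response element core (blue) in the 250 bases before each RefSeq start of 7 members, with the distance from the start in bases on the x axis and a row per start. The red match lies at the same distance in Hspa1b and Hspa1a, and Hspd1 and Hspe1 carry a run of overlapping matches.

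Values are TMM-normalized CPM, read counts that the authors scaled to the size of each library. From them 17182339 to 33937842 reads a library were recovered. In each group 1 library had the highest column sum, T3 11, hypoxia 7 and normoxia 1, and T3 11 was the highest of its group for 8 of the 10 members (5 of 10 with equal column sums). Neuron markers were abundant, with 8 markers summing to 6034 to 6166 CPM with T3, 5967 to 6450 CPM in hypoxia and 7482 to 8037 CPM in normoxia. The 9 astrocyte markers summed to 260 to 358, 196 to 379 and 182 to 287 CPM in the same order, with S100b under 1 CPM throughout. The 9 oligodendrocyte lineage markers summed to 133 to 189, 80.1 to 214 and 41.2 to 144 CPM, and the 8 progenitor and cell cycle markers to 79.5 to 143, 51.4 to 151 and 17.5 to 109 CPM. Gene by gene, 8 of 8 tested astrocyte markers, 8 of 8 tested oligodendrocyte lineage markers and 7 of 7 tested progenitor markers had a log2 change above 0 in hypoxia against normoxia. Their medians were 1.01, 0.97 and 0.66, with 1, 1 and 0 genes called by limma and the same by edgeR and DESeq2. Limma called 33.6% of all tested genes in this comparison. Of the 8 neuron markers it called 1 higher and 3 lower, with log2 changes from -1.12 to 0.20 and a median of -0.08. At an unadjusted p under 0.05 in limma 1 progenitor marker differed. With T3 against hypoxia the medians of the astrocyte, oligodendrocyte lineage and progenitor markers were 0.10, 0.02 and 0.05. All 8 microglia markers, and 6 of 8 endothelial and pericyte markers, stayed under 1 CPM in every library. Rn45s, the ribosomal RNA precursor, took 1.04% to 2.65% of the column sum with T3, 1.04% to 1.33% in hypoxia and 3.25% to 4.21% in normoxia. The part of these differences in the results below was not tested. In such bulk RNA, fewer cells of a type and less RNA per cell cannot be told apart.

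In hypoxia against normoxia the inducible HSP70 genes Hspa1b and Hspa1a rose, as did their partners Hsph1 and Dnajb1 and the mitochondrial Hspe1. With T3 against hypoxia Hspa1b and Hsph1 rose, and so did the constitutive HSP70 gene Hspa8. None of the 9 tested members fell in any of the 3 comparisons. Between T3 and normoxia all 9 tested members were higher, by 1.14-fold for Hspd1 up to 3.32-fold for Hspa1b. This last comparison changes oxygen and T3 together. No group had added T3 in normoxia, so the part of each cannot be told apart in it. Hspb1 was the member left untested, since it did not exceed 1 CPM in 3 libraries.

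Counted over the fit of all 12923 tested genes (limma, adjusted p under 0.05), 5 of 9 tested members were higher and 0 lower in hypoxia than in normoxia, where 14.3% of all tested genes were higher and 19.3% lower. Between T3 and hypoxia 3 of 9 were higher and 0 lower, with 2.73% of all tested genes higher and 3.75% lower. Between T3 and normoxia 9 of 9 were higher and 0 lower, with 25.5% of all tested genes higher and 29.5% lower. The median log2 change of the 9 was 0.36 in hypoxia against normoxia, where that of all tested genes was 0 and those of the astrocyte, oligodendrocyte lineage and progenitor markers were the larger values above. It was 0.23 for T3 against hypoxia, where that of all genes was -0.01, and 0.59 for T3 against normoxia, where that of all genes was 0. No member was lower at an unadjusted p under 0.05 in limma, or called lower by edgeR or DESeq2, in any comparison (0 of 9 in each). At an unadjusted p under 0.05 limma had 8 of 9 higher with T3 than in hypoxia, edgeR called 4 higher and DESeq2 7. The 2.73% is the share for adjusted limma calls and is no background for these counts. The shares of all tested genes by these measures are not given, here or for the lists below. DESeq2 called more genes than limma in this comparison. All 3 T3 libraries lay above all 3 hypoxia libraries for 8 of the 9 tested members, and for 15.8% of all tested genes. All 3 hypoxia libraries lay above all 3 normoxia libraries for 5 of the 9, and for 20.7% of all tested genes. All 3 T3 libraries lay above all 3 normoxia libraries for 9 of the 9, and for 29.8% of all tested genes. The comparisons share libraries: T3 against hypoxia and hypoxia against normoxia both use the hypoxia libraries.

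The count for T3 against hypoxia depended on single libraries. Members called higher fell to 0 without T3 11, T3 12 or hypoxia 8 and to 1 without hypoxia 7, and reached 7 without T3 13. The count over all genes, 838 changed, moved with them, to 46, 31, 43, 88 and 1817 in the same order. Without normoxia 2, 2 members and 455 genes were called. All 9 members kept a positive log2 change in each of these. Another scaling also moved the counts: with equal column sums 9 members were higher in hypoxia than in normoxia and 5 with T3 than in hypoxia, while the median of all genes shifted to 0.13 in the hypoxia comparison. With that scaling 3973 of all tested genes were higher in hypoxia than in normoxia and 284 with T3 than in hypoxia.

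**Figure D2:**
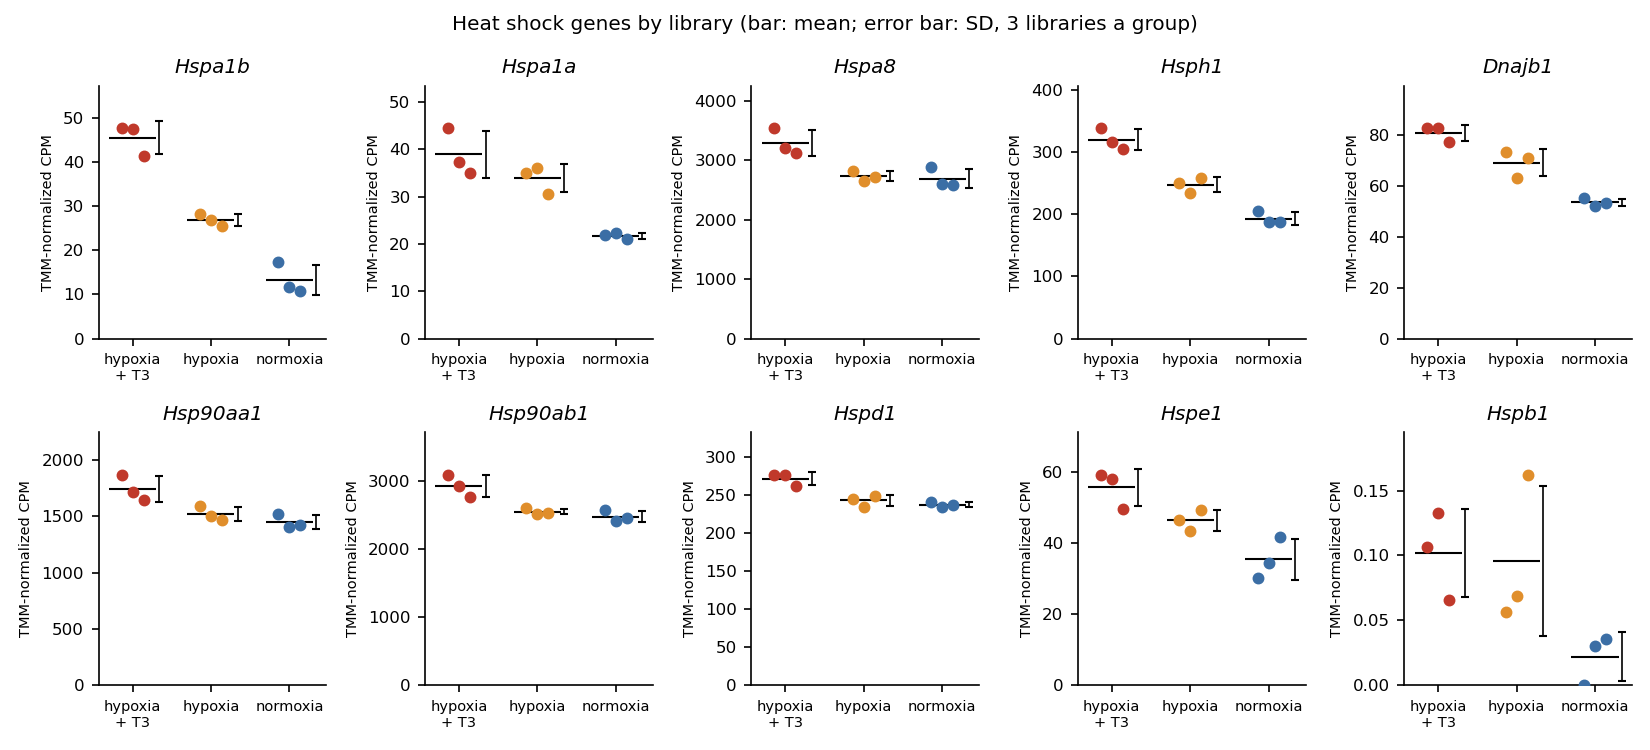
TMM-normalized CPM of the 10 members in each library, with 3 libraries a group (T3 red, hypoxia orange, normoxia blue), the group mean as a bar and the SD as an error bar; each panel has its own y axis. The T3 libraries lie above the hypoxia libraries without overlap for 8 members, the exceptions being Hspa1a and Hspb1.

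Hspa1b and Hspa1a encode the stress-inducible cytosolic HSP70, and their protein products are nearly identical. Hspa1b had 47.7, 47.6 and 41.3 CPM with T3, against 28.2, 26.9 and 25.5 CPM in hypoxia and 17.3, 11.7 and 10.8 CPM in normoxia. The 3 groups did not overlap, and T3 neurons had the highest values. Hspa1b rose by a log2 change of 0.99 in hypoxia against normoxia (SE 0.14, adjusted p = 5.7e-04) and by 0.74 with T3 against hypoxia (SE 0.14, adjusted p = 0.022). The second call was lost without hypoxia 7, hypoxia 8, T3 11 or T3 12 (adjusted p = 0.06, 0.092, 0.095 and 0.086) and with no filter on low values (adjusted p = 0.053). Between T3 and normoxia the log2 change was 1.73 (SE 0.14, adjusted p = 5.1e-06).

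Hspa1a had 44.5, 37.4 and 34.9 CPM with T3, against 35.0, 36.1 and 30.7 CPM in hypoxia and 21.8, 22.3 and 21.1 CPM in normoxia. The hypoxia libraries all lay above the normoxia libraries, while the T3 and hypoxia libraries overlapped. Hspa1a rose by 0.62 on the log2 scale in hypoxia against normoxia (SE 0.094, adjusted p = 9.0e-04). Its change with T3 against hypoxia was 0.19, with a 95% interval of -0.02 to 0.40 (adjusted p = 0.22).

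The split between these paralogs is uncertain. Both are genes of a single exon on the minus strand of chromosome 17, Hspa1b at chr17:34956436-34959238 and Hspa1a at chr17:34969190-34972156 (GENCODE M21, GRCm38), 9951 bases apart. Their transcripts of 2803 and 2967 bases matched at 95.8% of 2668 aligned bases, and 62.3% of the 50-base windows of Hspa1b occur unchanged in Hspa1a. A read from such a window cannot be placed by its sequence. The sum of the pair does not depend on the split, apart from reads of other near-identical copies, and was 92.3, 85.0 and 76.3 CPM with T3, against 63.2, 63.1 and 56.1 CPM in hypoxia and 39.09, 33.98 and 31.91 CPM in normoxia. The 3 groups did not overlap in this sum.

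The share of Hspa1b in the pair, examined after its values were seen, was 51.8%, 56.0% and 54.2% with T3, against 44.6%, 42.7% and 45.4% in hypoxia and 44.2%, 34.4% and 33.9% in normoxia. Hspa1b was the larger part of the pair in the T3 libraries and the smaller part in all others. The difference of T3 minus hypoxia was 9.77 percentage points, with p = 0.1 in a two-sided exact permutation test, the smallest p that 3 against 3 libraries allow (adjusted p = 0.15 over 6 tests of this kind). Hypoxia minus normoxia was 6.73 percentage points (exact permutation p = 0.2, adjusted p = 0.2 over the same 6 tests), and hypoxia 8 and 9 stood on either side of normoxia 1.

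**Figure D3:**
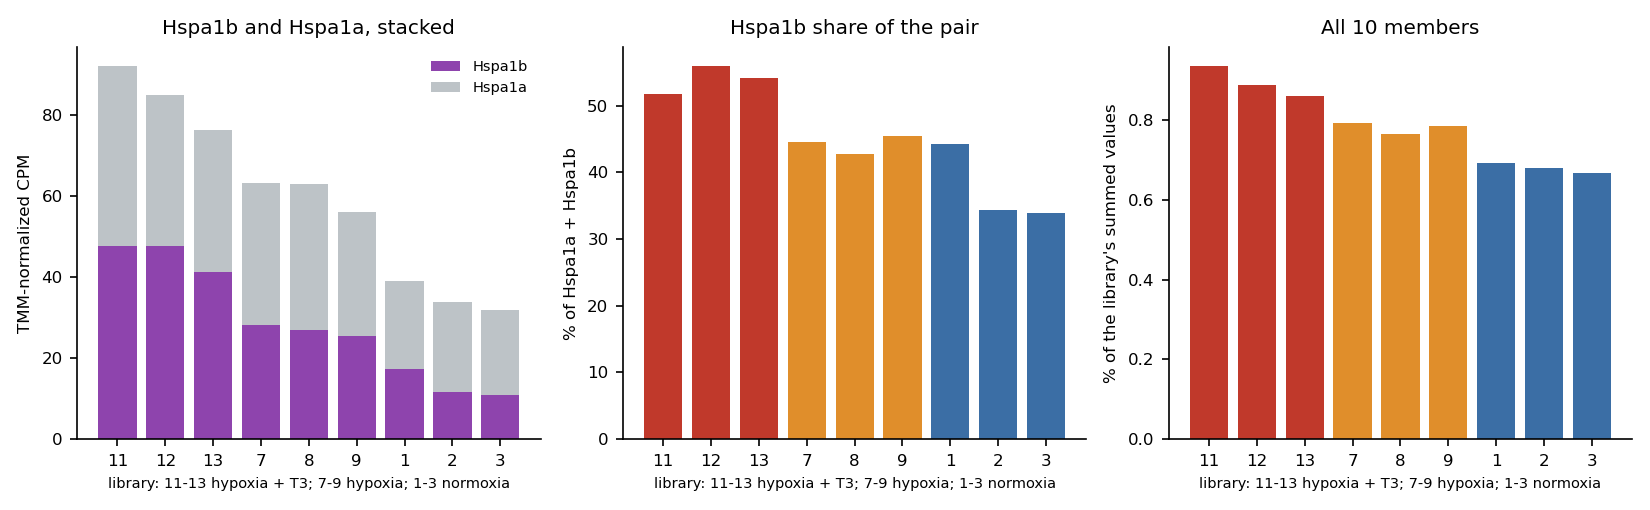
Left, Hspa1b (purple) and Hspa1a (grey) stacked, in TMM-normalized CPM; middle, Hspa1b as a percentage of the pair; right, the 10 members as a percentage of the summed values of the library. Each bar is 1 library, with T3 (red), hypoxia (orange) and normoxia (blue) from left to right in the middle and right panels. The share of the 10 members was 0.859% to 0.936% with T3, 0.765% to 0.792% in hypoxia and 0.667% to 0.691% in normoxia. Such shares are on the scale of equal column sums. As deposited, the summed CPM of the 10 overlapped between hypoxia and normoxia, with 7540.1 in normoxia 1 against 7321.0 in hypoxia 8.

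Hspa8 encodes HSC70, the constitutive HSP70 of the cytosol, which also strips clathrin from vesicles. It had 3543, 3213 and 3126 CPM with T3, against 2816, 2657 and 2725 CPM in hypoxia and 2880, 2604 and 2588 CPM in normoxia. The T3 libraries lay above all others, and the hypoxia and normoxia libraries overlapped. With T3 Hspa8 rose by 0.27 on the log2 scale against hypoxia (SE 0.065, adjusted p = 0.039). That call was lost in 6 of the 9 fits that left out 1 library, with adjusted p up to 0.16, without a filter on low values (adjusted p = 0.12), with only the 2 groups compared (adjusted p = 0.053) and with no variance trend (adjusted p = 0.078). Hypoxia against normoxia gave 0.02, with a 95% interval of -0.12 to 0.17 (adjusted p = 0.80).

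Hsph1 encodes HSP110, a nucleotide exchange factor of HSP70. It had 339, 316 and 306 CPM with T3, against 251, 235 and 258 CPM in hypoxia and 205, 187 and 187 CPM in normoxia. The 3 groups did not overlap. The log2 changes were of like size, 0.37 for T3 against hypoxia (SE 0.059, adjusted p = 0.013) and 0.36 for hypoxia against normoxia (SE 0.059, adjusted p = 0.0013). The T3 call was lost without hypoxia 8, T3 11 or T3 12 (adjusted p = 0.076, 0.059 and 0.065).

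Dnajb1 encodes the J-domain protein HSP40 that hands clients to HSP70. It had 82.6, 82.5 and 77.2 CPM with T3, against 73.1, 63.0 and 70.8 CPM in hypoxia and 55.0, 52.1 and 53.1 CPM in normoxia. The 3 groups did not overlap here either. Dnajb1 rose by 0.36 on the log2 scale in hypoxia against normoxia (SE 0.064, adjusted p = 0.002). With T3 against hypoxia its log2 change was 0.23 (95% interval 0.09 to 0.37, adjusted p = 0.055), which missed the threshold.

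Hsp90aa1 and Hsp90ab1 encode the cytosolic HSP90 proteins, the first more stress-inducible and the second constitutive. Hsp90aa1 had 1873, 1718 and 1651 CPM with T3, against 1597, 1500 and 1472 CPM in hypoxia and 1520, 1406 and 1427 CPM in normoxia. Hsp90ab1 had 3098, 2926 and 2764 CPM with T3, against 2603, 2525 and 2535 CPM in hypoxia and 2570, 2416 and 2457 CPM in normoxia. In both genes the T3 libraries lay above the hypoxia libraries, which overlapped with normoxia. The log2 change with T3 against hypoxia was 0.20 for Hsp90aa1 (95% interval 0.06 to 0.33, adjusted p = 0.067) and 0.20 for Hsp90ab1 (95% interval 0.07 to 0.32, adjusted p = 0.055), neither past the threshold. Hypoxia against normoxia gave 0.07 for Hsp90aa1 (95% interval -0.06 to 0.20) and 0.04 for Hsp90ab1 (95% interval -0.08 to 0.16). With equal column sums both passed in hypoxia against normoxia, at 0.21 and 0.18, and both passed with T3 against hypoxia, at 0.16 each.

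Hspd1 and Hspe1 encode HSP60 and HSP10 of the mitochondrial matrix. They lie head to head on chromosome 1, and their annotations overlap by 112 bases. Hspd1 had 275, 276 and 261 CPM with T3, against 245, 234 and 248 CPM in hypoxia and 240, 234 and 237 CPM in normoxia. The T3 libraries lay above the rest, but the log2 change of 0.16 against hypoxia (95% interval 0.06 to 0.26) missed the threshold at an adjusted p of 0.054. Hypoxia against normoxia gave 0.03 for Hspd1 (95% interval -0.07 to 0.13, adjusted p = 0.59).

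Hspe1 had 59.4, 58.1 and 49.8 CPM with T3, against 46.5, 43.5 and 49.4 CPM in hypoxia and 30.2, 34.3 and 41.8 CPM in normoxia. The groups did not overlap, though the nearest T3 and hypoxia libraries were close. Hspe1 rose by 0.39 on the log2 scale in hypoxia against normoxia (SE 0.11, adjusted p = 0.019), a call lost without normoxia 1, normoxia 2 or hypoxia 9 (adjusted p = 0.069, 0.057 and 0.071). Its change with T3 against hypoxia was 0.26 (95% interval 0.01 to 0.50, adjusted p = 0.16). The ratio of the CPM of Hspd1 to that of Hspe1 was 4.88 ± 0.323 with T3, 5.23 ± 0.179 in hypoxia and 6.80 ± 1.15 in normoxia (SD, n = 3 each). Hypoxia minus normoxia was -1.58 (exact permutation p = 0.1, adjusted p = 0.15 over the 6 tests above), and T3 minus hypoxia was -0.343 (exact permutation p = 0.2, adjusted p = 0.2).

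Hspb1 encodes HSP27, a small heat shock protein that holds unfolding clients without using ATP. It was near 0 in every library, with 3, 4 and 2 reads with T3, 1, 2 and 4 reads in hypoxia and 0, 1 and 1 reads in normoxia. The largest value was 0.162 CPM, in hypoxia 9. A difference between groups was not detectable at this depth.

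**Figure D4:**
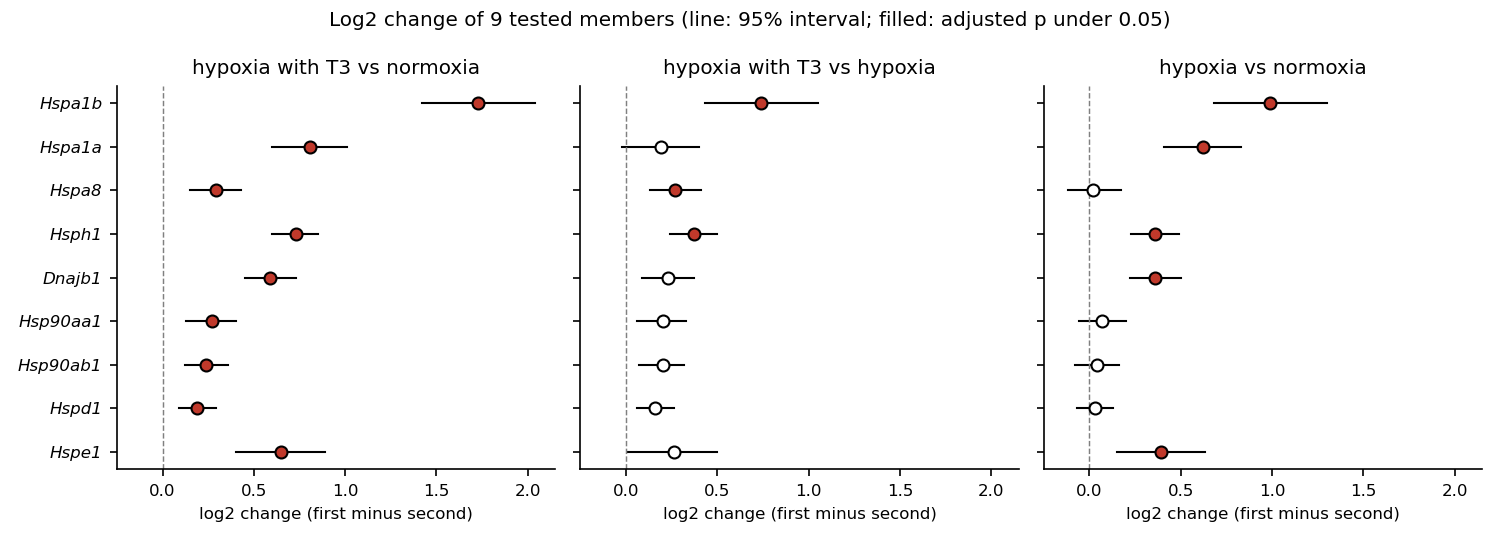
Log2 change of the 9 tested members on the x axis in 3 comparisons, with the 95% interval as a line and calls at an adjusted p under 0.05 filled in red. All points lie right of 0; Hspa1b has the largest change in each panel, up to 1.73 for T3 against normoxia.

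Levels were also compared between genes as CPM per kilobase of annotated exon, with exons united over all transcripts. The union can be longer than the RNA that the cells made, so the order of genes is approximate. By this measure Hsp90ab1 ranked first, followed by Hspa8, Hsp90aa1, Hspd1, Hsph1, Hspe1 and Dnajb1. The union was 4301 bases for Hspa8 and 2999 bases for Hsp90ab1. In mean CPM Hspa8 was above Hsp90ab1 in every group, at 3294 against 2929 CPM with T3. Hsp90ab1 had 977 ± 55.8 CPM per kilobase with T3, 852 ± 14.1 in hypoxia and 827 ± 26.5 in normoxia (SD, n = 3 each). Hspa1b had 16.3 ± 1.31 with T3, 9.58 ± 0.49 in hypoxia and 4.73 ± 1.25 in normoxia, and Hspa1a had 13.1 ± 1.68, 11.4 ± 0.978 and 7.32 ± 0.206 in the same groups and unit. Thus the inducible HSP70 transcripts stayed far below the constitutive Hspa8, at 766 ± 51.1 with T3, 635 ± 18.5 in hypoxia and 626 ± 38.2 in normoxia. Hspa1a and Hspa1b changed places between T3, where their ranges overlapped, and both other groups, where they did not. The ranges of Hsph1 and Hspe1 overlapped in hypoxia and in normoxia, and those of other neighbours down to Hspa1a and Hspa1b did not overlap. Hspa8, Hsp90aa1 and Hsp90ab1 together made up 90.6% to 92.4% of the summed CPM of the 10 members in every library.

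The members fell into patterns of change. As a measure of likeness, the root mean square difference was taken over the 9 libraries of the log2 values, each gene set to its own normoxia mean. The pair of members most alike was Hsp90aa1 and Hsp90ab1, at 0.032, followed by Hsp90aa1 and Hspa8 at 0.039. Hspd1 was close to all 3 of these, at 0.042 from Hsp90ab1, 0.07 from Hsp90aa1 and 0.076 from Hspa8. Among pairs of the other 5 tested members Dnajb1 and Hsph1 were the closest, at 0.09. Hspa1b stood farthest from the others, at 0.60 from Hspa1a and 1.06 from Hspd1. Each tested member had a nearest gene outside the members that was closer to it than any other member was. Among all other tested genes, those nearest to Hsp90aa1 were Mkrn1, Dnaja1 and Bag1, at 0.027, 0.029 and 0.03. Dnaja1 and Bag1 encode HSP70 partners, and no other nearest gene named here was in the chaperone lists. Those nearest to Hsp90ab1 were Vdac1, Ndufs3 and Cfl1 (0.019, 0.026 and 0.027), and those nearest to Hspa8 were Rab3a, Atp6v0c and Csdc2 (0.035, 0.038 and 0.039). Hsph1 was nearest to Fam57b, Plk2 and Bfar (0.038, 0.04 and 0.04) and Dnajb1 to Slc6a8, Utp14a and Ngrn (0.03, 0.037 and 0.041). Hspe1 was nearest to Rpl39, Cox7b and Pcna (0.044, 0.045 and 0.049) and Hspd1 to Eif3c, Gdi2 and Taok2 (0.025, 0.026 and 0.027). For Hspa1a they were Grp, Ccdc115 and Ythdc1 (0.06, 0.088 and 0.09), and for Hspa1b Dusp1, Cdk20 and Tbl2, the least close, at 0.143, 0.168 and 0.173.

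Other chaperone genes gave a mixed picture. Between T3 and normoxia 25.5% of all tested genes were higher and 29.5% lower. There 9 of 13 tested TRiC and prefoldin genes were higher and 0 lower. Of 17 HSP90 paralogs and co-chaperones 10 were higher and 1 lower, and of 11 other HSP70 and HSP110 genes 6 and 1. J-domain genes had 13 higher and 13 lower of 39, and mitochondrial chaperones and proteases 5 and 3 of 14. HSP70 exchange factors and co-chaperones had 2 and 1 of 9, and small heat shock genes 1 and 1 of 4. The heat shock factors Hsf1 and Hsf2 did not pass the threshold in hypoxia against normoxia or with T3 against hypoxia. Hsf1 had a log2 change of -0.02 in hypoxia against normoxia and 0.02 with T3 against hypoxia, and Hsf2 had 0.13 and 0.09. With T3 against normoxia Hsf2 was higher, with a log2 change of 0.21 (adjusted p = 0.016). Hsbp1, a binding protein of HSF1 that holds it back, rose by 0.23 in hypoxia (adjusted p = 0.02) and was the 1 called of 3 tested genes in the factor list of 6, where 33.6% of all tested genes changed.

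Of the 11 other HSP70 and HSP110 genes, all tested, limma called Hspa2 alone in hypoxia against normoxia and in T3 against hypoxia. It was higher in both, where 14.3% and 2.73% of all tested genes were higher. With T3, 3 of the 11 were higher by DESeq2 and at an unadjusted p under 0.05 in limma, and 1 by edgeR. Hspa2 averaged 25.2 ± 3.34 CPM with T3, 18.7 ± 0.486 CPM in hypoxia and 13.1 ± 0.505 CPM in normoxia (SD, n = 3 each), with log2 changes of 0.41 for T3 against hypoxia (adjusted p = 0.035) and 0.48 for hypoxia against normoxia (adjusted p = 0.0036). The mitochondrial HSP70 gene Hspa9 and the endoplasmic reticulum HSP70 gene Hspa5 had log2 changes of 0.19 and 0.22 with T3 against hypoxia. These did not pass (limma adjusted p = 0.062 and 0.066). With T3 against normoxia both were higher, by 0.27 and 0.23 (limma adjusted p = 0.0021 and 0.011).

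Among 17 HSP90 paralogs and co-chaperones, all tested, 4 were higher and 0 lower with T3 than in hypoxia, where 2.73% of all tested genes were higher. By edgeR 3 were higher and by DESeq2 6, and 0 were lower by either; at an unadjusted p under 0.05 in limma 6 were higher and 1 lower. The 4 were Ahsa1, Cdc37, Ppid and Unc45a. Ahsa1, which stimulates the HSP90 ATPase, had a log2 change of 0.23 and the kinase loader Cdc37 0.18 (limma adjusted p = 0.033 and 0.045). The cyclophilin Ppid had 0.23 and the myosin chaperone Unc45a 0.24 (limma adjusted p = 0.036 and 0.048). Without 1 library the genes called in this comparison ranged from 31 to 1817. How these 4 calls fared there is not given, nor for Hspa2, Dnaja1, Cct5 and Cct7. In hypoxia against normoxia 5 were higher and 0 lower (7 and 0 by edgeR and by DESeq2, 7 and 1 at an unadjusted p under 0.05), where 14.3% of all tested genes were higher. Among the 5 were Ppid (0.26), Unc45a (0.24), the immunophilin Fkbp5 (0.33) and Chordc1 (0.31). Ppid and Unc45a were in both counts.

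Of 39 tested J-domain genes of 43 listed, 1 was higher with T3 than in hypoxia, where 2.73% of all tested genes were higher. It was Dnaja1, a partner of HSC70, with 641, 632 and 578 CPM with T3, 551, 515 and 520 CPM in hypoxia and 528, 494 and 503 CPM in normoxia and a log2 change of 0.22 against hypoxia (adjusted p = 0.039). At an unadjusted p under 0.05 in limma 6 of the 39 were higher and 5 lower with T3 than in hypoxia. By edgeR 1 was higher and by DESeq2 2, and 0 were lower by either. In hypoxia against normoxia 5 of the 39 were higher and 8 lower, where 14.3% of all tested genes were higher and 19.3% lower. Dnajb4 and the iron-sulfur cochaperone Hscb rose by 0.49 and 0.70, and Dnajc30 and Dnajc13, which acts at endosomes, fell by 0.49 and 0.35. Among 9 tested HSP70 nucleotide exchange factors and co-chaperones of 10 listed, 0 were called with T3 and 1 in hypoxia. That 1 was Sil1 of the endoplasmic reticulum, which fell by 0.49. For this list and the next, limma called 6.48% of all tested genes with T3 against hypoxia and 33.6% in hypoxia against normoxia. With T3, 3 of the 9 were higher at an unadjusted p under 0.05, and edgeR and DESeq2 called 0. The 4 tested small heat shock genes of 9 listed gave 0 calls in either comparison by limma, edgeR or DESeq2. At an unadjusted p under 0.05, 1 was lower with T3 than in hypoxia and 0 differed in hypoxia against normoxia. Their log2 changes ran from -0.41 to 0.14 with T3 against hypoxia and from -0.19 to 0.29 in hypoxia against normoxia.

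**Figure D5:**
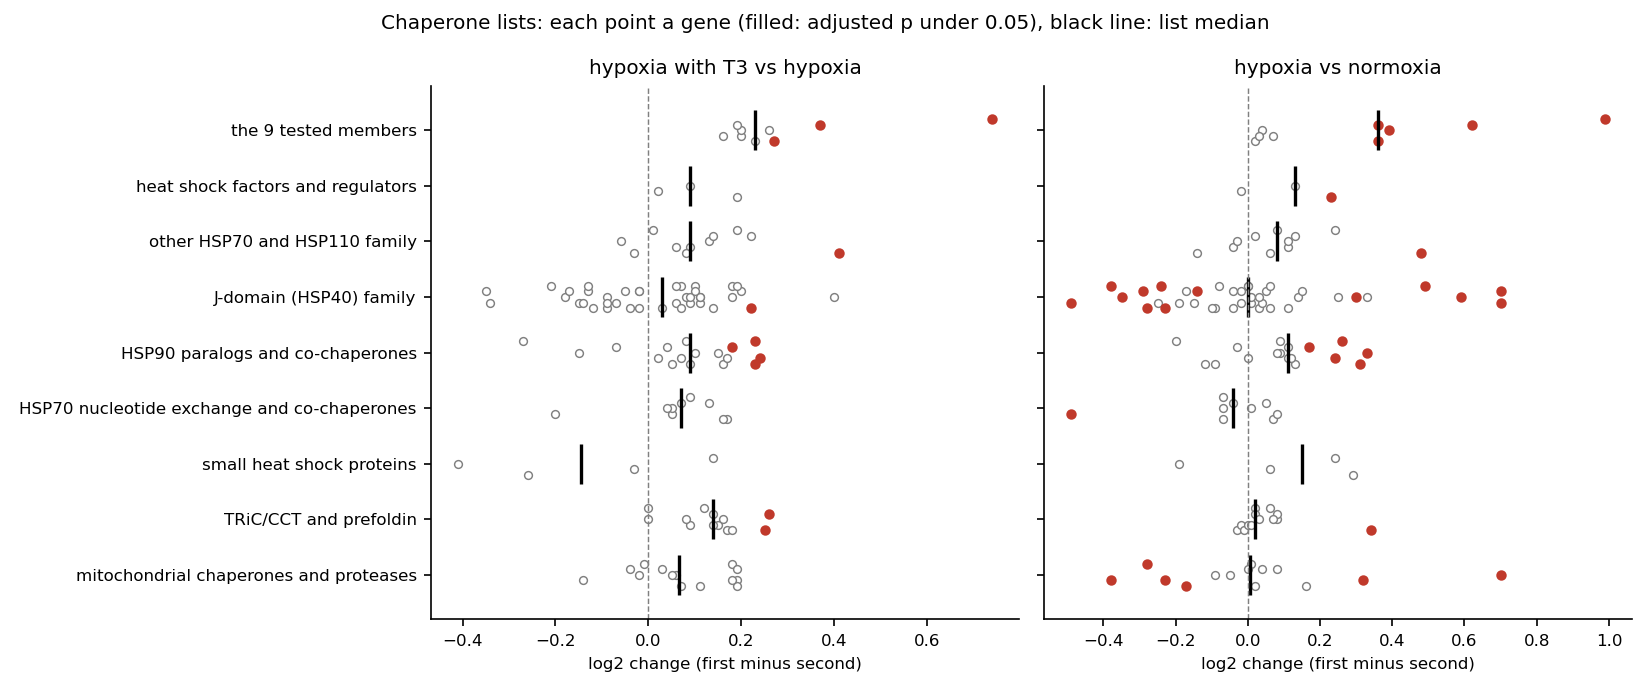
Log2 change of each tested gene of the member list and 8 related chaperone lists, for T3 against hypoxia on the left and hypoxia against normoxia on the right; filled points passed at an adjusted p under 0.05 and black lines are list medians. The members' medians are 0.23 and 0.36, and the J-domain genes spread to both sides of 0.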

How the data were processed

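The authors deposited 1 table of TMM-normalized CPM with a column per library, used here as a signal. The genome build was mm10 and the tools included RSEM 1.2.15, Bowtie2 2.1.0 and edgeR without a version, per the submitters' processing notes. The gene annotation, any filters and the use of strand in counting are not given in the sources used here. Columns sum to 945822 to 1091200. Values are whole multiples of 1 read (within 0.01 reads) in all but 142 values of 35 rows, which hold 0 members, and the reads of each library were recovered from this. Recovered reads are not molecules, and they cover counting error only. 1 unnamed column with 4 numbers was not used. Of the symbols, 27 had become dates.

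Genes above 1 CPM in at least 3 libraries (12923) were fitted over all 9 libraries on log2 of the value plus 1 with limma 3.58.1 in R 4.3.3 (lmFit, then eBayes with trend, leaving 6 residual degrees of freedom). Two-sided p-values were adjusted by Benjamini-Hochberg over these genes and called under 0.05. Log2 changes are on this scale, which understates the change of low genes. Fold values are 2 to the power of the log2 change. Simulated counts with the same dispersion for every gene were fitted first to check the code. That does not measure how reliable the calls here are. edgeR 4.0.16 and DESeq2 1.42.0 on recovered reads were alternatives. Named genes are the members, up to 4 genes with the smallest adjusted p in each chaperone list and comparison, and the 3 genes most like each member, without predicted genes. Not all genes that this rule gives are named. Members, lists and tests were chosen with earlier results of these data known. Exon lengths are unions over transcripts of GENCODE M21.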

Additional observations from a re-analysis of the deposited data

How the results depend on the processing

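The 9 tested members in 3 comparisons were refitted under 20 alternatives, 9 of which left out 1 library. Of 540 values, 539 kept their direction. The exception was Hspa8 in hypoxia against normoxia, uncalled throughout but with equal column sums, at -0.004 without normoxia 3 and at most 0.073, without normoxia 1, when 1 library was left out. Between T3 and normoxia the 9 members stayed higher in every alternative (9 to 9 without 1 library). Members higher in hypoxia than in normoxia numbered 4 to 5 without 1 library and 9 with equal column sums, where 3973 genes were higher and 1232 lower, against 1846 and 2497 as deposited. Members higher with T3 than in hypoxia numbered 1 with no filter, 6 at a mean of at least 5 CPM, 5 with equal column sums, 7 by DESeq2 and 0 to 7 without 1 library. Of all tested genes 93 were higher with no filter, 472 at a mean of at least 5 CPM and 284 with equal column sums, against 353 in the main fit. The number of genes tested differs with the filter. Genes changed between T3 and hypoxia, 838, became 172 with no filter, 275 with only the 2 groups compared, 234 with no variance trend, 1742 by DESeq2 and 31 to 1817 without 1 library. The causes were not tested. Alternatives that left out the 35 rows were added after seeing the data. No paired analysis was possible because the numbers in the headers of hypoxia (7 to 9) and T3 (11 to 13) columns are not the replicate numbers in the labels. Depth limited Hspb1, with at most 4 reads a library.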

Other observations

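Calls among chaperones outside the HSP70 and HSP90 systems were also set beside the shares of all tested genes. The TRiC ring, which folds actin and tubulin, and its partner prefoldin had 13 tested genes of 14 listed. With T3 against hypoxia 2 of the 13 were higher and 0 lower, where 2.73% of all tested genes were higher. By edgeR 2 were higher and by DESeq2 6, and 7 were higher and 0 lower at an unadjusted p under 0.05 in limma. Cct7 averaged 303 ± 14.3 CPM with T3 and 255 ± 9.79 CPM in hypoxia (SD, n = 3 each; log2 change 0.25, adjusted p = 0.026 in limma), and Cct5 had a log2 change of 0.26 (adjusted p = 0.032). The median log2 change of the 13 was 0.14, where that of all tested genes was -0.01. In hypoxia against normoxia 1 was higher and 0 lower by limma, where 14.3% of all tested genes were higher. By edgeR, by DESeq2 and at an unadjusted p under 0.05 in limma the counts were the same. The 1 was the prefoldin gene Pfdn5, with a log2 change of 0.34 (adjusted p = 0.0094 in limma). The median of the 13 was 0.02.

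Mitochondrial chaperones and proteases, 14 genes, had 0 limma calls with T3 against hypoxia, where 6.48% of all tested genes were called. By edgeR 0 and by DESeq2 1 were called, and 5 were higher at an unadjusted p under 0.05 in limma. In hypoxia against normoxia 2 were higher and 4 lower, where 14.3% of all tested genes were higher and 19.3% lower. Hscb and the nucleotide exchange factor Grpel2 rose by 0.70 and 0.32 on the log2 scale, while the proteases Spg7 and Htra2 fell by 0.38 and 0.28. Hspa9 and the protease Lonp1 had log2 changes of 0.19 each with T3 against hypoxia (limma adjusted p = 0.062 and 0.09), which did not pass. With T3 against normoxia both were higher, by 0.27 and 0.35 (limma adjusted p = 0.0021 and 8.6e-04).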
